A study of Mus musculus with 8 samples.

Results

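The 10 genes described here are targets of the hypoxia-inducible factors (HIF) that act outside glycolysis: Car9, Car12, Vegfa, Adm, Egln3, P4ha1, P4ha2, Bnip3, Ndrg1 and Ankrd37. They were chosen by symbol, with earlier results of these data known. Each was read from the probe set that the array annotation gives to that 1 symbol. Where there were several, the one with the highest mean was taken. All 10 had such a probe set, among 19938 genes measured. Bnip3 was the single member with 2 probe sets.

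RNA was measured on 8 arrays from the primary tumours of NPcis mice, a model of malignant peripheral nerve sheath tumour. The mice carry mutations of Nf1 and Trp53 on the same chromosome, so that tumours of every group share these lesions. Each of the 4 groups holds 2 arrays. The combination group received rapamycin (5 mg/kg, injected into the peritoneum) and PD-0325901 (1.5 mg/kg per dose, by oral gavage, 2 doses a day), the PD-0325901 and rapamycin groups received that drug alone at the same dose, and the vehicle group received neither, each for 14 hours. Rapamycin inhibits the kinase complex mTORC1 and PD-0325901 inhibits MEK, the kinase upstream of ERK. The labels do not say whether the 2 arrays of a group come from separate mice, so p-values measure only the spread between these arrays, which may be technical.

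When oxygen is low, the prolyl hydroxylases that mark HIF-alpha proteins for destruction slow down, HIF-alpha pairs with ARNT, and the pair binds short hypoxia response elements near its target genes. The targets outside glycolysis serve pH control at the cell surface, blood vessel growth, collagen maturation, removal of mitochondria and feedback on HIF itself. In solid tumours they are commonly read as a sign of poorly oxygenated regions. Growth signals through mTORC1 and ERK are also known to raise HIF-1 output.

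Promoter sequence is shown for 4 members: for Car9, Bnip3 and P4ha1, which had the smallest p-values for the arrays with PD-0325901, and for P4ha2, the paralogue of P4ha1. The sequences are RefSeq's (build GRCm38.p6), 5′ to 3′ on the strand of the gene, and end at the base before the outermost annotated start of the gene. Capitals mark the core of the hypoxia response element, which is ACGTG or GCGTG on either strand.
Car9, chr4:43506776-43507025, plus strand: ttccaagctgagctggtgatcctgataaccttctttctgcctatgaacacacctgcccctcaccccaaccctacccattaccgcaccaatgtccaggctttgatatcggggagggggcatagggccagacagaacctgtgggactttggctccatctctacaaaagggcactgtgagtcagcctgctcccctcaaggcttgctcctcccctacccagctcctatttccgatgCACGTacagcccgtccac
Bnip3, chr7:138909507-138909756, minus strand: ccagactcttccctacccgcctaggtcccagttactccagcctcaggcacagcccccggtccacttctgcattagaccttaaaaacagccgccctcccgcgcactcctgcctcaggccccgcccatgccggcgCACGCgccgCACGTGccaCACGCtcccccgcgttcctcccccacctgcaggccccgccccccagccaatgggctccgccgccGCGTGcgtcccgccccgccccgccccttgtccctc
P4ha1, chr10:59323046-59323196, plus strand: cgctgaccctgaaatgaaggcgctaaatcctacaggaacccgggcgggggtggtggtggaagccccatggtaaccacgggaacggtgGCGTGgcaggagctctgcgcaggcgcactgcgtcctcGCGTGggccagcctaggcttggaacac
P4ha2, chr11:54100674-54100923, plus strand: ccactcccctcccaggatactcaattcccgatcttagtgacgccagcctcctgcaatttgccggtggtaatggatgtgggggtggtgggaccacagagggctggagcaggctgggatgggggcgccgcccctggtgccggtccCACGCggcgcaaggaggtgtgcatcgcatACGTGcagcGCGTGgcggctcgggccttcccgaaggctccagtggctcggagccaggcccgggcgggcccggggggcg

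The core was counted in the 250 bases before each annotated start, on both strands, so that the palindrome CACGTG counts once on each. Of the 9 members with a window (Car9, Car12, Vegfa, Adm, Egln3, Bnip3, Ankrd37, P4ha1 and P4ha2), 8 held at least 1 match. Among 32851 windows of 27025 genes, 38.6% held at least 1 match, 16.7% at least 2 and 6.6% at least 3. The members are counted by gene, Vegfa with 2 windows, and these shares by window. Bnip3 had 5 matches, a number reached by 1.0% of all windows, and its window had 72.4% G or C against a median of 52.4%. The windows of Ankrd37 (67.6%), P4ha1 (69.6%) and P4ha2 (70.0%) were also rich in G or C. Of the members' windows only that of Egln3 (50.8%) lay below the median. The part of G or C content in the number of matches was not tested. Ankrd37 had 4 matches (2.6% of windows had as many), P4ha1 and P4ha2 3 each, Adm 2, and Car9 and Egln3 1 each. The match of Car9 begins 18 bases before its start. The match of P4ha1 that begins 16 bases before its start lies outside the stretch printed. Vegfa had 2 matches before one annotated start and 0 before the other, and Car12 had 0. The number of matches did not run in the order of the differences reported below: Ankrd37, with 4, had a difference near 0 in the arrays with PD-0325901, and Car9, with 1, had the largest of the 10. A match is a description of the letters, not a bound site.

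**Figure D1:**
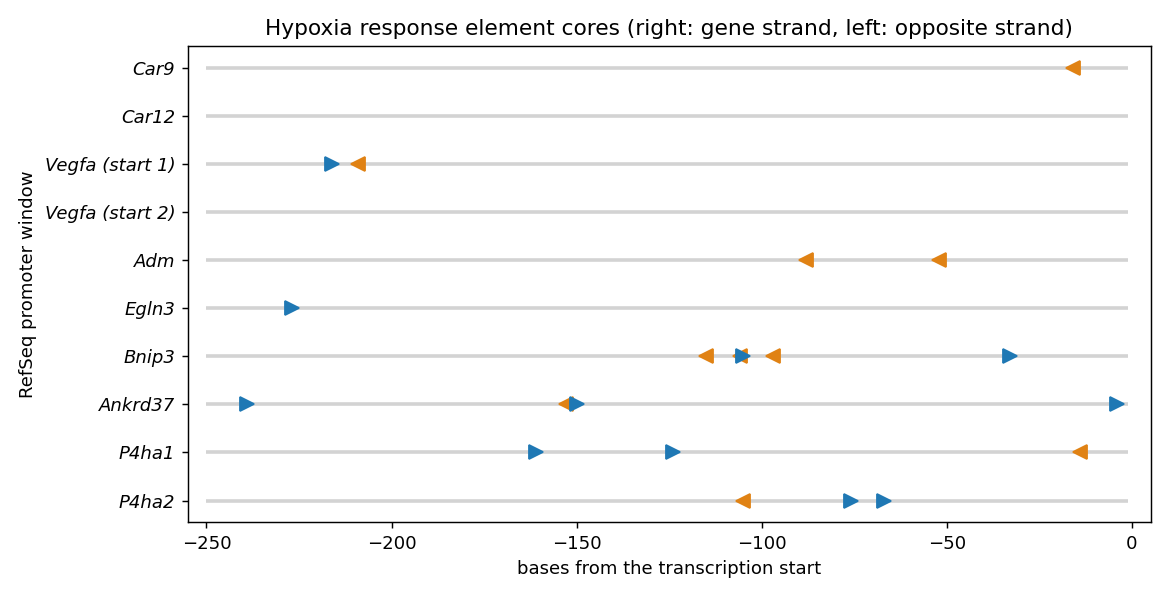
Positions of the hypoxia response element core (ACGTG or GCGTG) in the 250 bases before the transcription starts of 9 members, from RefSeq. The x axis is the distance from the start in bases, each grey line is 1 promoter window, and triangles pointing right and left are matches on the strand of the gene and on the opposite strand. Bnip3 carries 5 matches and Car12 none.

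Car9 had the largest difference of the 10 members between arrays with and without PD-0325901. It encodes carbonic anhydrase IX, a membrane enzyme with its active site outside the cell that helps tumour cells export acid. Its log2 signal was 6.84 and 7.08 in the combination tumours and 7.16 and 7.21 in the PD-0325901 tumours, against 7.84 and 8.50 in the rapamycin tumours and 9.35 and 8.46 in the vehicle tumours. All 4 arrays with PD-0325901 lay below all 4 without it. The mean was 7.07 ± 0.16 with PD-0325901 and 8.54 ± 0.62 without it (SD, n = 4 each). No detection call was used, so whether the values with PD-0325901 are above background was not determined. The PD-0325901 main effect, which averages the drug's difference in the absence and presence of rapamycin, was -1.47 log2 (SE 0.24, 95% interval -2.06 to -0.88), or 0.361 times the signal. In limma's fit of 4 group means, with Benjamini-Hochberg adjustment of the p-values of all genes together, the adjusted p was 0.1574 (unadjusted p = 8.753e-04) and did not pass the threshold of 0.05. Fewer cells of a type and less RNA per cell cannot be told apart in whole tumours, here or in any result below.

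The Car9 difference was present both without and with rapamycin. PD-0325901 alone differed from vehicle by -1.72 log2 (SE 0.34, adjusted p = 0.4739), and the combination differed from rapamycin by -1.22 (SE 0.34, adjusted p = 0.6141). The interaction of the drugs was 0.51 (SE 0.48, adjusted p = 0.9999), with 0.060 without vehicle array 1 and 0.95 without vehicle array 2. Against vehicle, the combination had the widest Car9 difference, -1.95 (SE 0.34, adjusted p = 0.3588), and rapamycin alone had -0.73 (SE 0.34, adjusted p = 0.9638), which was -0.28 when vehicle array 1 was left out and -1.18 when vehicle array 2 was. These comparisons share the vehicle or the combination arrays. Leaving out any single array kept the main effect of PD-0325901 between -1.69 and -1.25.

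Car12 encodes carbonic anhydrase XII, a related membrane enzyme that faces outward and is also made by normal epithelia. Its signal was 7.08 and 6.94 in combination tumours and 8.03 and 7.01 in PD-0325901 tumours, against 9.04 and 6.63 in rapamycin tumours and 7.29 and 8.69 in vehicle tumours. The arrays of rapamycin stood 2.41 log2 apart and those of vehicle 1.40, and the groups with and without PD-0325901 overlapped. The main effect of PD-0325901 was -0.65 (SE 0.61, adjusted p = 0.8399). It was -0.05 without rapamycin array 1 and -1.25 without rapamycin array 2. Across the 8 arrays Car12 was the member least like the others, with a Pearson r of -0.06 with the mean of the other 9, whereas Car9 had 0.87. With 8 arrays and no p, these values only describe how the signals ran on these arrays.

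**Figure D2:**
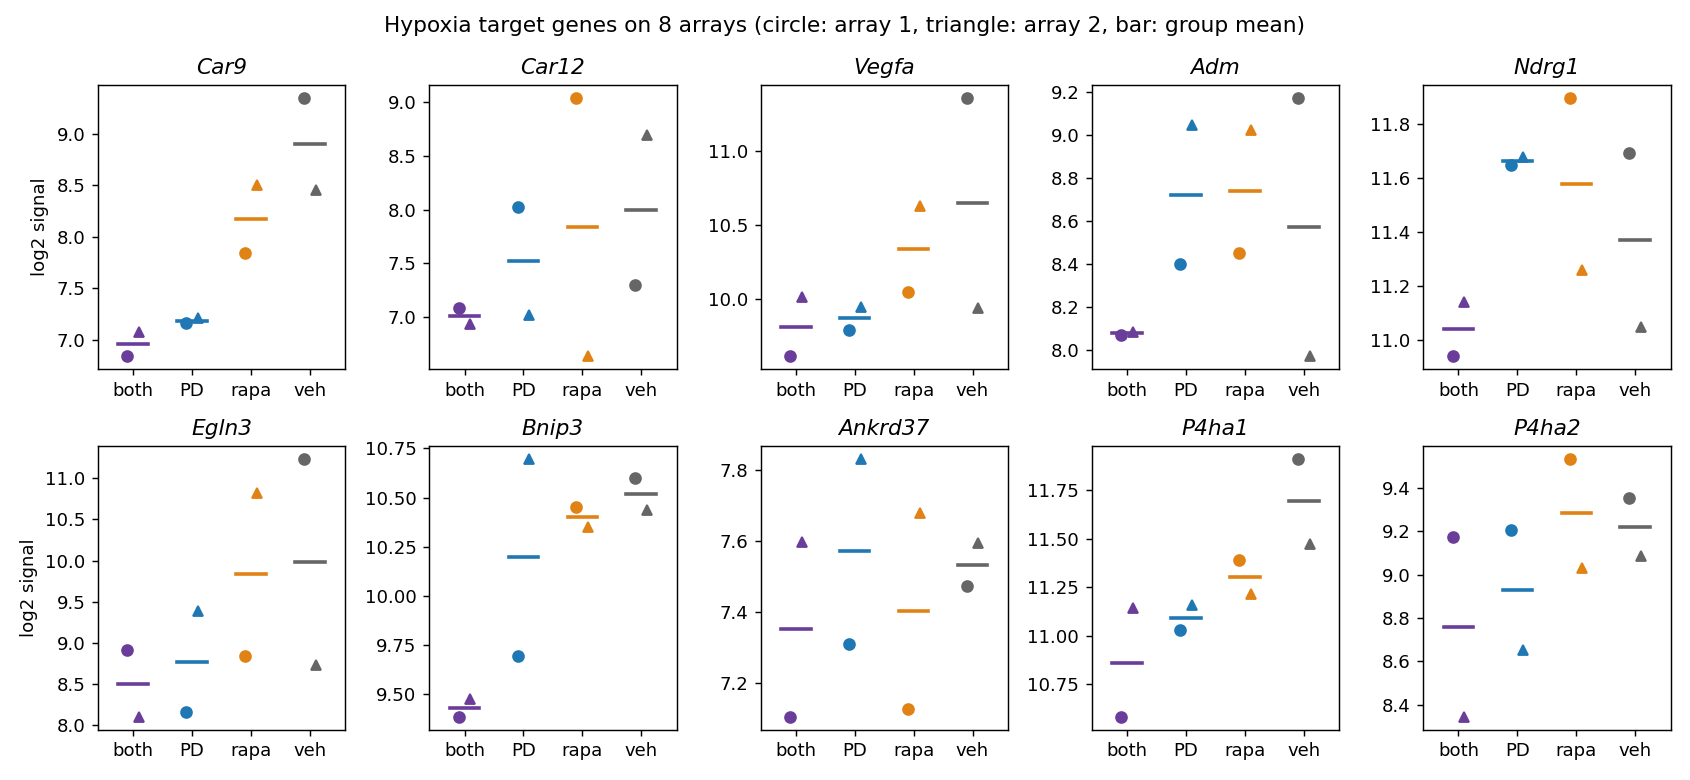
Log2 signal of the 10 members on every array (y axis, a separate scale for each gene). Groups run from both drugs (both) over PD-0325901 (PD) and rapamycin (rapa) to vehicle (veh); circles are array 1, triangles array 2 and bars the group mean. All 4 arrays with PD-0325901 lie below the other 4 for Car9 and P4ha1, and the vehicle circles stand highest for Vegfa, Adm and Egln3.

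Among the secreted factors, Vegfa, the main growth factor of blood vessels, had 9.62 and 10.01 in combination tumours and 9.79 and 9.95 in PD-0325901 tumours, against 10.05 and 10.63 in rapamycin tumours and 11.36 and 9.94 in vehicle tumours. The highest value by far was that of vehicle array 1, while vehicle array 2 lay within the range of the arrays with PD-0325901. The main effect of PD-0325901 was -0.65 (SE 0.33, adjusted p = 0.6283), and -0.30 without vehicle array 1. Adm, which encodes the vasodilator peptide adrenomedullin, had 8.07 and 8.08 in combination tumours, 8.40 and 9.05 in PD-0325901 tumours, 8.45 and 9.02 in rapamycin tumours and 9.17 and 7.97 in vehicle tumours. Its lowest and highest values both came from vehicle tumours. The main effect of PD-0325901 on Adm was -0.26 (SE 0.31, adjusted p = 0.8788), with 0.044 when vehicle array 1 was left out and -0.55 when vehicle array 2 was.

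Egln3 encodes the prolyl hydroxylase PHD3, a HIF target that in turn hydroxylates HIF-alpha. It had 8.91 and 8.10 in combination tumours and 8.16 and 9.38 in PD-0325901 tumours, against 8.85 and 10.83 in rapamycin tumours and 11.24 and 8.73 in vehicle tumours. One array of rapamycin and one of vehicle were far above the rest, and their group partners were not. The main effect of PD-0325901 was -1.27 (SE 0.72, adjusted p = 0.6767) with a 95% interval of -3.04 to 0.50. It was -0.64 when vehicle array 1 was left out and -1.90 when vehicle array 2 was.

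P4ha1 and P4ha2 encode the catalytic subunits of collagen prolyl 4-hydroxylase, which collagen needs to form a stable triple helix. P4ha1 had 10.58 and 11.14 in combination tumours and 11.03 and 11.16 in PD-0325901 tumours, against 11.39 and 11.21 in rapamycin tumours and 11.91 and 11.48 in vehicle tumours. As for Car9, all arrays with PD-0325901 lay below all arrays without it, though combination array 2, PD-0325901 array 2 and rapamycin array 2 were close to each other. The main effect was -0.52 (SE 0.16, 95% interval -0.92 to -0.12, adjusted p = 0.4002). P4ha2 had 9.17 and 8.34 in combination tumours and 9.20 and 8.65 in PD-0325901 tumours, against 9.53 and 9.03 in rapamycin tumours and 9.35 and 9.09 in vehicle tumours. These groups overlapped, and the main effect was -0.41 (SE 0.24, adjusted p = 0.6942), with -0.20 without combination array 2 and -0.62 without combination array 1. As the sequences above show, both genes carry cores in the stretch printed.

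Bnip3 encodes a mitochondrial outer membrane protein that directs mitochondria to autophagy. It was low in both combination tumours (9.38 and 9.48) and split between the PD-0325901 tumours (9.69 and 10.70), against 10.45 and 10.35 in rapamycin tumours and 10.60 and 10.44 in vehicle tumours. PD-0325901 array 2 held the highest value of all 8, so the arrays with and without the drug overlapped. The main effect was -0.65 (SE 0.22, 95% interval -1.18 to -0.11, adjusted p = 0.4354), with -0.40 without PD-0325901 array 1 and -0.90 without PD-0325901 array 2. The combination differed from PD-0325901 by -0.76 (SE 0.31, adjusted p = 0.9998), which was -0.26 without PD-0325901 array 2 and -1.27 without PD-0325901 array 1. It differed from vehicle by -1.09 (SE 0.31, adjusted p = 0.4372), a value that stayed between -1.17 and -1.01 when any single array was left out. The gene's other probe set showed the same order of groups, with 9.27 and 9.27 in combination tumours, 9.41 and 10.36 in PD-0325901 tumours, 10.11 and 10.08 in rapamycin tumours and 10.16 and 10.06 in vehicle tumours.

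Ndrg1, a stress-induced protein that in peripheral nerve is needed by Schwann cells to keep myelin, had 10.94 and 11.14 in combination tumours, 11.65 and 11.68 in PD-0325901 tumours, 11.90 and 11.26 in rapamycin tumours and 11.69 and 11.05 in vehicle tumours. PD-0325901 alone lay within the vehicle and rapamycin ranges, and both combination arrays lay below both PD-0325901 arrays. The combination differed from PD-0325901 by -0.62 (SE 0.28, adjusted p = 0.9998), and the interaction of the drugs was -0.83 (SE 0.40, adjusted p = 0.9999), with -0.51 without vehicle array 2. The PD-0325901 main effect was -0.12 (SE 0.20, adjusted p = 0.9191), with 0.039 without vehicle array 1 and 0.037 without rapamycin array 1. Ankrd37, an ankyrin repeat protein gene induced by HIF-1, had 7.10 and 7.60 in combination tumours, 7.31 and 7.83 in PD-0325901 tumours, 7.13 and 7.68 in rapamycin tumours and 7.47 and 7.59 in vehicle tumours. Its main effect of PD-0325901 was -0.01 (SE 0.20, 95% interval -0.49 to 0.47, adjusted p = 0.9948), and the arrays of each drug group differed more from each other than the group means did.

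Set against the whole array, 10 of 10 members had a PD-0325901 main effect below 0, where 54.0% of all genes did. The median difference of the members was -0.58, against -0.01 over all genes, and it was -0.38 without vehicle array 1, where Adm and Ndrg1 were above 0; Ndrg1 was also above 0 without rapamycin array 1. The sign of Ankrd37 changed when any of 4 arrays was left out. At an unadjusted p under 0.05, Car9, Bnip3 and P4ha1 were lower (3 of 10 members) and 0 were higher, where 4.14% of all genes were lower and 5.47% higher. The 4 arrays with PD-0325901 lay entirely below the other 4 for 2 of 10 members, Car9 and P4ha1, as for 2.39% of all genes, and entirely above for 0 members (3.34% of all genes). After adjustment 0 members passed, and 0% of all genes did.

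**Figure D3:**
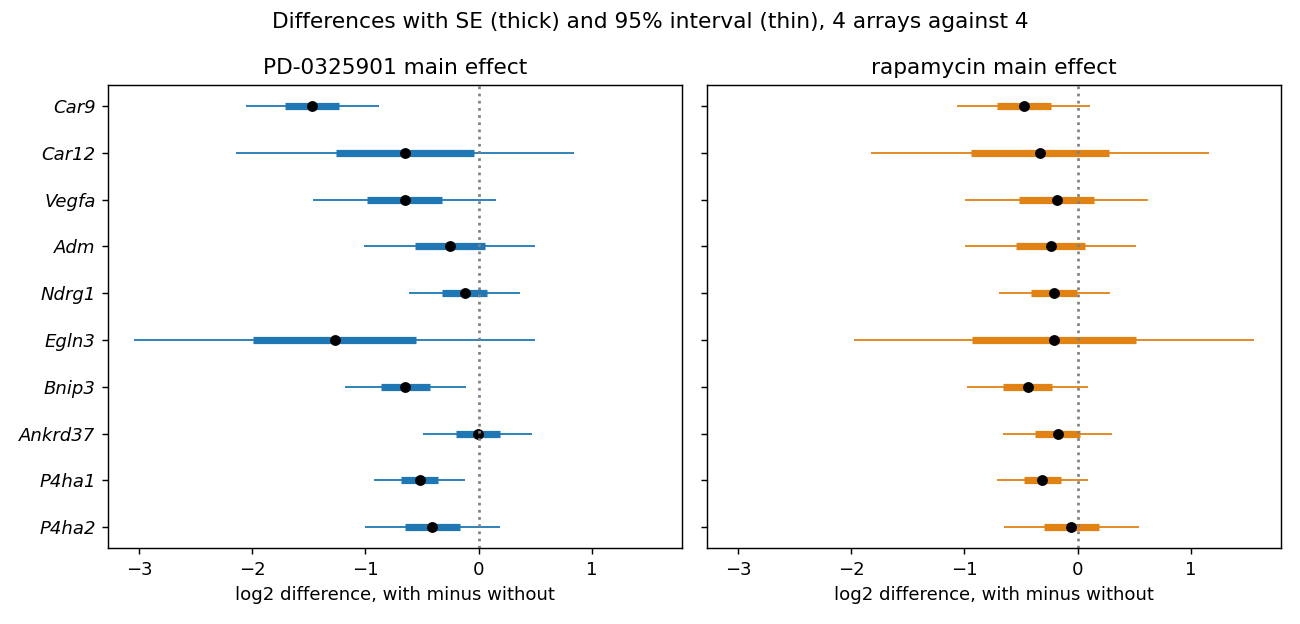
Main effects of PD-0325901 (left) and rapamycin (right) on the 10 members as log2 differences (x axis), 4 arrays with the drug minus 4 without. Points are estimates from limma's fit of 4 group means, thick lines 1 SE and thin lines 95% intervals. With PD-0325901 the intervals of Car9, Bnip3 and P4ha1 lie below 0, and with rapamycin every interval includes 0.

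With rapamycin as a main effect the members also had differences below 0 in 10 of 10 cases, where 53.8% of all genes did, with a median of -0.22 against -0.01 over all genes. Leaving out vehicle array 1 gave a median of -0.12, with Vegfa, Adm, Egln3 and P4ha2 above 0, and leaving out vehicle array 2 gave -0.45, with Car12 above 0. Car12, Egln3 and P4ha2 also crossed 0 when single treated arrays were left out. The differences ran from -0.48 (Car9, SE 0.24, adjusted p = 0.9019) to -0.05 (P4ha2, SE 0.24, adjusted p = 0.9817). Bnip3 had -0.44 (SE 0.22, adjusted p = 0.9019) and P4ha1 -0.31 (SE 0.16, adjusted p = 0.9042). Leaving out 1 array moved these values by over 1.5 times. Car9 had -0.25 without vehicle array 1 and -0.70 without vehicle array 2. Bnip3 had -0.19 without PD-0325901 array 2 and -0.69 without PD-0325901 array 1, and P4ha1 had -0.17 without combination array 1 and -0.45 without combination array 2. In this comparison 0 members passed at an adjusted p under 0.05 (0% of all genes) or at an unadjusted p under 0.05 in limma's fit (2.40% of all genes lower and 3.15% higher), and for 0 members were the arrays with and without rapamycin separate (1.94% of all genes lower and 1.41% higher).

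In single comparisons, the members' median was -0.83 for the combination against vehicle, -0.40 for PD-0325901 against vehicle and -0.14 for rapamycin against vehicle. These 3 share the vehicle arrays. Without vehicle array 1 the medians were -0.29, -0.12 and 0.078. All 10 members had a lower mean in the combination than in vehicle (53.7% of all genes did), and 7 of 10 in PD-0325901 and in rapamycin (53.8% and 54.1%). For the combination against vehicle, Adm was 0.10 without vehicle array 1 and Ankrd37 0.065 without combination array 1. Adm, Ndrg1 and Ankrd37 had a higher mean with PD-0325901 than with vehicle, by 0.15, 0.29 and 0.04. Each fell below 0 when a single array was left out (-0.45, -0.03 and -0.22). Car12 (0.23), Egln3 (0.044) and Bnip3 (0.18) likewise rose above 0 in that comparison. In rapamycin against vehicle, only Car9, Bnip3 and P4ha1 kept their sign whichever array was left out. Both combination arrays lay below both vehicle arrays for 4 of 10 members (Car9, Car12, Bnip3 and P4ha1; 22.3% of all genes). The same held for 2 of 10 in PD-0325901 against vehicle (Car9 and P4ha1; 20.9%) and for P4ha1 alone in rapamycin against vehicle (17.9%).

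The combination was also lower than each single drug for all 10 members by their means, with a median of -0.60 against rapamycin (51.7% of all genes were lower) and -0.25 against PD-0325901 (52.1%). Without combination array 1 the median against PD-0325901 was -0.55, and without combination array 2 it was -0.45. Against PD-0325901, Vegfa (0.14), Egln3 (0.35), Ankrd37 (0.041), P4ha1 (0.048) and P4ha2 (0.24) rose above 0 when a single array was left out. Against rapamycin, Car12 (0.38) and Ankrd37 (0.22) did. Both comparisons share the combination arrays. Both combination arrays lay below both rapamycin arrays for 6 of 10 members (Car9, Vegfa, Adm, Ndrg1, Bnip3 and P4ha1; 15.1% of all genes), and below both PD-0325901 arrays for 4 of 10 (Car9, Adm, Ndrg1 and Bnip3; 18.2%). The interaction of the drugs had a median of -0.17 over the members, with 7 of 10 below 0 (48.2% of all genes were), and it was 0.015 without PD-0325901 array 2. In each of these 6 remaining comparisons limma called 0 members at an adjusted p under 0.05 (0% of all genes). At an unadjusted p under 0.05, 3 members were lower in the combination than in vehicle (Car9, Bnip3 and P4ha1; 4.0% of all genes lower, 797 in number, 5.08% higher) and 2 were lower in PD-0325901 than in vehicle (Car9 and P4ha1; 2.38% lower, 3.47% higher). In rapamycin against vehicle 0 members reached that p (2.15% of all genes lower, 2.77% higher). The combination was lower than rapamycin for 2 members (Car9 and Bnip3; 2.71% lower, 3.95% higher) and lower than PD-0325901 for Bnip3 alone (1.27% lower, 1.74% higher). The interaction had 0 (1.14% of all genes below 0 and 1.03% above), and 0 members were higher at that p in any of these comparisons.

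The spread within groups was wide for these genes. The within-group SD had a median of 0.40 over the 10 members and of 0.17 over all genes. It was 1.24 for Egln3 and 1.05 for Car12, more than for 99.4% and 98.9% of all genes, and lowest for P4ha1 at 0.26, more than for 70.8%. Vehicle array 1 held the highest of 8 values for 5 members (Car9, Vegfa, Adm, Egln3 and P4ha1), and vehicle array 2 for none. Combination array 1 held the lowest value for 6 members and combination array 2 for 2. The mean of the members, each centred on its own mean, was -0.50 and -0.48 on the combination arrays and -0.22 and -0.01 on the PD-0325901 arrays, against 0.20 and 0.25 on the rapamycin arrays and 0.68 and 0.08 on the vehicle arrays.

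**Figure D4:**
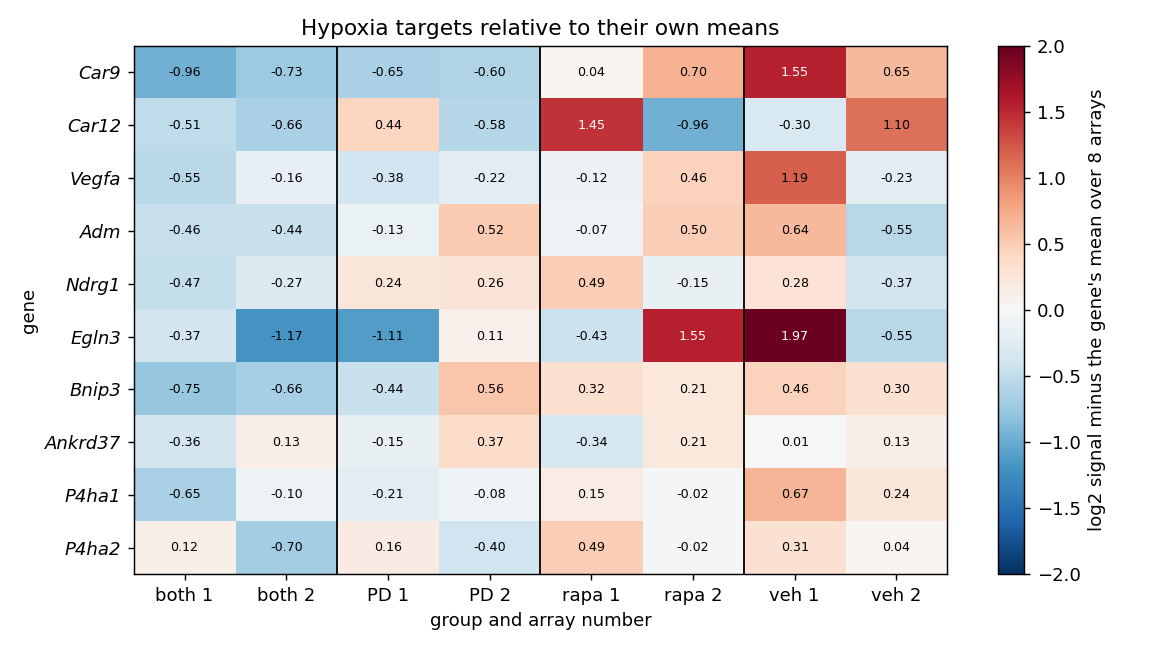
Log2 signal of each member (rows) on each array (columns) minus the gene's mean over the 8 arrays, with red above and blue below that mean. Columns run from both drugs (both) over PD-0325901 (PD) and rapamycin (rapa) to vehicle (veh), with the array number. Egln3 stands at 1.97 on vehicle array 1 and -0.55 on vehicle array 2, while Car9 is below its mean on all 4 arrays with PD-0325901.

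Members did not share one order of arrays. Of the 45 pairs of members, 39 had a Pearson r above 0 over the 8 arrays, with a median of 0.39 and a range of -0.67 (Ankrd37 and P4ha2) to 0.87 (Vegfa and Egln3). Car9 was closest to P4ha1 (r = 0.87), Adm to Egln3 (0.82) and Bnip3 to P4ha1 (0.73). These values describe 8 arrays that share 4 treatments, and no p is given. Outside the members, the genes whose arrays followed the members' mean most closely were Icam4, an adhesion molecule of red cell precursors (r = 0.96, Spearman rho 0.98), Tnfsf9, the ligand of the costimulatory receptor 4-1BB (0.96, rho 0.95), Atg9b, an autophagy protein (0.96, rho 0.905), 1700061I17Rik (0.96, rho 0.905), Tspan15, a tetraspanin (0.96, rho 1), and Myo3a, an unconventional myosin (0.95, rho 0.905), each over 8 arrays and picked for its r among all genes. Tspan15 had 7.78 and 7.80 in combination tumours and 8.03 and 8.03 in PD-0325901 tumours, against 8.33 and 8.50 in rapamycin tumours and 8.60 and 8.32 in vehicle tumours.

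The genes that sense oxygen and form HIF had differences in both directions. Of 18 genes, 9 had a PD-0325901 main effect above 0 and 9 below, with a median of -0.01, and 1 had an unadjusted p under 0.05. Hif1a, the oxygen-regulated subunit of HIF-1, had a difference of -0.19 (SE 0.21, adjusted p = 0.8694), Epas1, the subunit of HIF-2, -0.36 (SE 0.23, adjusted p = 0.7322), its partner Arnt 0.22 (SE 0.15, adjusted p = 0.7479) and Vhl, which recognises hydroxylated HIF-alpha for degradation, 0.06 (SE 0.08, adjusted p = 0.8763). The smallest p belonged to Siah2, a ubiquitin ligase that degrades prolyl hydroxylases (-0.30, SE 0.12, adjusted p = 0.4872). HIF activity is set mainly through the amount of HIF-alpha protein, which RNA arrays do not measure. With rapamycin 7 of the 18 were above 0 and 11 below, with a median of -0.01.

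Of 39 other HIF targets outside glycolysis, 26 had a PD-0325901 main effect below 0 and 13 above, with a median of -0.14. At an unadjusted p under 0.05, 4 were lower and 1 higher, and 0 passed after adjustment. Ak4, a mitochondrial adenylate kinase, had 8.33 and 8.00 in combination tumours and 8.74 and 9.07 in PD-0325901 tumours, against 8.50 and 9.44 in rapamycin tumours and 10.16 and 10.06 in vehicle tumours. Its difference with PD-0325901 was -1.0046 (SE 0.22, adjusted p = 0.2598). Fam162a, a mitochondrial protein linked to cell death in hypoxia, had 9.10 and 8.63 in combination tumours and 9.38 and 9.51 in PD-0325901 tumours, against 9.38 and 9.42 in rapamycin tumours and 9.94 and 9.91 in vehicle tumours (-0.51, SE 0.12, adjusted p = 0.2676). For both, every treated array lay below both vehicle arrays. Igfbp3, which binds insulin-like growth factors, had -1.15 (SE 0.30, adjusted p = 0.3199) and the creatine transporter Slc6a8 -0.71 (SE 0.19, adjusted p = 0.3199). With rapamycin the list had 17 below 0 and 22 above, with a median of 0.02, and Fam162a had -0.55 (SE 0.12, adjusted p = 0.7523) while the cyclin Ccng2 had 0.55 (SE 0.13, adjusted p = 0.7523).

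The glycolytic HIF targets, described for comparison, had a median of -0.25 with PD-0325901 (15 of 18 below 0, 5 lower and 1 higher at an unadjusted p under 0.05) and -0.27 with rapamycin (16 of 18 below 0, 4 lower). Their median was -0.06 for PD-0325901 against vehicle and -0.35 for the combination against rapamycin. For rapamycin against vehicle it was -0.19, and for the combination against PD-0325901 -0.33. The lactate exporter Slc16a3 had -0.52 (SE 0.15, adjusted p = 0.3509) with PD-0325901 and -0.59 (SE 0.15, adjusted p = 0.7523) with rapamycin.

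Relatives of the members in the same gene families, 26 genes of the carbonic anhydrase, VEGF, adrenomedullin, NDRG, EGLN, BNIP3 and prolyl hydroxylase families, had a median of -0.07 with PD-0325901 (18 below 0 and 8 above), and 0 had an unadjusted p under 0.05. The smallest p belonged to Car6, a secreted carbonic anhydrase, which had -0.60 (SE 0.25, adjusted p = 0.5217). Vegfc, the growth factor of lymphatic vessels, had 0.28 (SE 0.12, adjusted p = 0.5414), and the cytosolic carbonic anhydrase Car13 had 0.53 (SE 0.23, adjusted p = 0.5537), while the cytosolic Car1 had -0.22 (SE 0.11, adjusted p = 0.6128). With rapamycin the widest difference of a relative was that of Car3, a carbonic anhydrase abundant in muscle and fat. Car3 had 10.37 and 9.34 in combination tumours and 12.56 and 11.62 in rapamycin tumours, against 8.01 and 9.75 in PD-0325901 tumours and 7.69 and 7.10 in vehicle tumours (2.84, SE 0.48, adjusted p = 0.7523). Rapamycin array 1 had the highest score of 7 adipocyte markers (2.28, others -0.54 to 0.20) and rapamycin array 2 that of 10 skeletal muscle markers (1.56, others -0.78 to 0.66), where a score is the mean of the markers' centred log2 values. Their part in the Car3 difference was not tested.

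Receptors of VEGF and adrenomedullin, with their co-receptors and partners, were set beside the 2 secreted members. The list also holds Flt4 and Ramp1, which are not taken here as receptors of Vegfa or Adm. Of 10 receptor genes, 8 had a PD-0325901 main effect below 0, with a median of -0.38, 4 of them lower and 1 higher at an unadjusted p under 0.05. Flt4 (-0.73, SE 0.25, adjusted p = 0.4405) was among those lower, and Ramp1 was the 1 higher. Flt1, a VEGF receptor, had 8.61 and 8.79 in combination tumours and 8.45 and 9.12 in PD-0325901 tumours, against 9.46 and 9.51 in rapamycin tumours and 9.85 and 9.06 in vehicle tumours (-0.73, SE 0.22, adjusted p = 0.3884). Kdr, the main signalling receptor for VEGF-A in endothelium, had -0.37 (SE 0.14, adjusted p = 0.4690), and Nrp1, a co-receptor, 0.30 (SE 0.21, adjusted p = 0.7554). The signal of Kdr was 8.58 and 8.81 in combination tumours and 9.43 and 9.23 in rapamycin tumours. In PD-0325901 tumours it was 8.71 and 8.60, between the vehicle arrays (9.01 and 8.51). For adrenomedullin, the receptor Calcrl had -0.03 (SE 0.20, adjusted p = 0.9818), its partner Ramp2 -0.37 (SE 0.21, adjusted p = 0.6768), and the scavenger receptor Ackr3 -0.69 (SE 0.19, adjusted p = 0.3309). Ramp1, a relative of Ramp2, had 0.54 (SE 0.13, adjusted p = 0.2825). With rapamycin 6 of 10 were above 0, with a median of 0.13.

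Markers of several cell types also differed between the arrays with and without PD-0325901, none past the adjusted threshold. Endothelial markers, which include Flt1 and Kdr, were below 0 in 11 of 12 cases (median -0.44, 5 with an unadjusted p under 0.05). This main effect averages unlike comparisons. PD-0325901 against vehicle had 7 of 12 below 0 and a median of -0.08, and the combination against rapamycin 12 of 12 and -0.74. In rapamycin against vehicle 12 of 12 were above 0, with a median of 0.35. The endothelial score was -0.37 and -0.23 on the combination arrays and -0.33 and 0.13 on the PD-0325901 arrays. It was 0.67 and 0.11 on the rapamycin arrays and 0.20 and -0.19 on the vehicle arrays. Macrophage markers were above 0 in 12 of 14 cases (median 0.39, 9 with an unadjusted p under 0.05), and their score was 0.31 and -0.21 on the combination arrays and 0.24 and 0.37 on the PD-0325901 arrays, against -0.19 and -0.15 on the rapamycin arrays and -0.04 and -0.33 on the vehicle arrays. T and NK cell markers were above 0 in 13 of 13 cases (median 0.62, 9 with an unadjusted p under 0.05), with scores of 0.09 and 0.91 on the combination arrays and -0.03 and 0.58 on the PD-0325901 arrays, against -0.58 and -0.57 on the rapamycin arrays and -0.0017 and -0.40 on the vehicle arrays. Epidermis and epithelial markers, a class that can express Car9 and Car12, were below 0 in 9 of 10 cases with a median of -0.10. Their score was -0.22 and -0.26 on the combination arrays and -0.07 and -0.37 on the PD-0325901 arrays, against 0.06 and 0.21 on the rapamycin arrays and 0.65 and 0.0079 on the vehicle arrays. Among them Krt18, a keratin of simple epithelia, had 8.30 and 7.79 in combination tumours and 8.74 and 7.75 in PD-0325901 tumours, against 9.91 and 11.71 in rapamycin tumours and 12.03 and 9.74 in vehicle tumours (-2.70, SE 0.64, adjusted p = 0.2839), the lowest difference among all 19938 genes in limma's fit. Krt8, its partner keratin, had -1.39 (SE 0.66, adjusted p = 0.5995). The other 8 markers of that list, which include Epcam and the epidermal keratins Krt5 and Krt14, lay between -0.19 (Cdh1) and 0.0497 (Epcam), so that its score rests mainly on Krt8 and Krt18. The part of these cell types in the members' differences was not tested. The medians of the other marker lists were 0.02 for 10 Schwann cell, 0.10 for 8 neutrophil, 0.23 for 12 fibroblast, -0.35 for 10 pericyte and smooth muscle, 0.51 for 3 erythroid, -0.07 for 10 skeletal muscle and -0.54 for 7 adipocyte markers. The erythroid and adipocyte medians lean on single arrays. The erythroid score was 1.84 on PD-0325901 array 2 (others -0.54 to -0.0026), where the neutrophil score was 0.87 (others -0.38 to 0.13). The adipocyte score was 2.28 on rapamycin array 1 (others -0.54 to 0.20). Of the 10 Schwann cell markers, 7 were above 0 and 3 below. Gap43, a growth cone protein also made by immature Schwann cells, had 9.68 and 9.06 in combination tumours and 9.67 and 8.99 in PD-0325901 tumours, against 7.66 and 7.86 in rapamycin tumours and 7.70 and 9.60 in vehicle tumours (1.14, SE 0.44, adjusted p = 0.4863). The groups overlapped through vehicle array 2. The cadherin Cdh19 had 1.01 (SE 0.41, adjusted p = 0.5251), the intermediate filament gene Nes -0.87 (SE 0.87, adjusted p = 0.8585) and the growth factor receptor Egfr 0.27 (SE 0.36, adjusted p = 0.8965). The Schwann lineage factor Sox10, named here with S100b to check the tumour label, lay between 7.85 and 8.17 and S100b between 7.12 and 7.32 on all 8 arrays; no detection call was used here, so whether such a level is above background was not determined.

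Genes that report ERK signalling, the pathway PD-0325901 blocks, were below 0 in 22 of 23 cases with a median of -0.42, and 8 were lower at an unadjusted p under 0.05. Spred1, a feedback inhibitor of Ras signalling, had 10.15 and 10.14 in combination tumours and 9.96 and 9.97 in PD-0325901 tumours, against 10.56 and 10.69 in rapamycin tumours and 10.54 and 10.59 in vehicle tumours (-0.54, SE 0.07, adjusted p = 0.1411). Hbegf, a ligand of the EGF receptor, had -1.27 (SE 0.21, adjusted p = 0.1653). The arrays with and without PD-0325901 were separate for both genes. The difference between the members' median and that of the ERK list was not tested. With rapamycin the ERK list had a median of -0.06 (11 above 0 and 12 below).

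**Figure D5:**
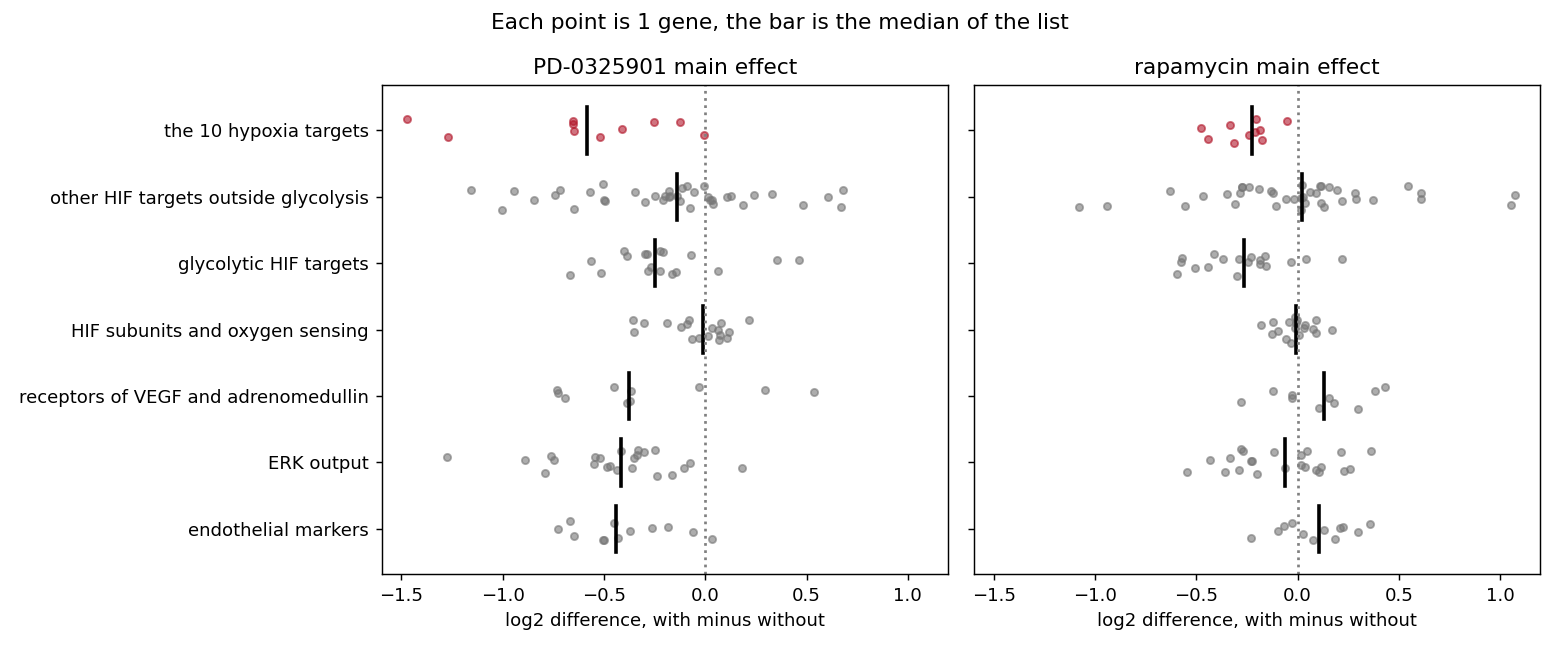
Main effects of PD-0325901 (left) and rapamycin (right) as log2 differences (x axis) for the genes of 7 lists (y axis). Each point is 1 gene and each black bar the median of its list. With PD-0325901 the 10 hypoxia targets have a median of -0.58, the genes of HIF subunits and oxygen sensing -0.01, and with rapamycin these are -0.22 and -0.01.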

How the data were processed

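The values are log2 signals, 1 per probe set and array, as the authors deposited them; the scale was read from their range (3.36 to 14.36, above the natural logarithm of a 16-bit value, 11.09, while the log2 of that value is 16.0). No source used here names the normalization, background correction or software. Array medians lay between 7.79 and 7.90. Per the labels' protocols, RNA was extracted with Trizol and RNeasy columns and labelled after amplification by a Nugen Applause kit.

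Of 35512 probe sets, 21789 carried 1 gene symbol, 1621 several and 12101 none, and 1 was empty. The probe set with the highest mean stood for its gene. No filter on low values was applied, and levels of different probe sets were not compared. The number of arrays limits the precision.

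Group means were fitted over all genes with limma 3.58.1 in R 4.3.3 (lmFit and eBayes, two-sided, 4 residual and 1.98 prior degrees of freedom), with Benjamini-Hochberg adjustment over 19938 genes and a threshold of 0.05. The code was tested on simulated data. The alternatives were quantile normalization, median centring, a level filter, a variance trend, the mean of probe sets, the array number as a block, other sample sets, a looser threshold and leaving out each array. Named genes are all members, up to 4 genes of a list with the smallest p for PD-0325901 and up to 2 for rapamycin, the subunits and receptors named by role, and the 6 genes most like the members. Sox10, Epcam and Krt14 fall outside this rule and were named after their values were seen. The members and lists were chosen with earlier results of these data known.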

Additional observations from a re-analysis of the deposited data

Results flagged for a closer look

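In sets of 4 arrays with or without a drug, 3 of 40 sets over the 10 members held 1 array far from the other 3 by Dixon's criterion. Independent values from a single normal population meet it in about 1 of 20 sets. The sets here mix treatment groups and share arrays, so that rate need not be theirs. Car12 was 8.03 on PD-0325901 array 1, against 6.94 to 7.08 on the other arrays with PD-0325901. Vegfa was 11.36 on vehicle array 1, against 9.79 to 9.95 on the other arrays without rapamycin. Ndrg1 was 11.05 on vehicle array 2, against 11.65 to 11.69 on the other arrays without rapamycin.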

How the results depend on the processing

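No member passed the threshold in any of the 8 comparisons under any alternative, including an adjusted p under 0.1. The lowest adjusted p of Car9 for the PD-0325901 main effect was 0.1032, without rapamycin array 1. The other alternatives that keep all arrays moved no median of the members by as much as its SD between replicates (0.19). The level filter left 7 members and dropped Car9, Car12 and Ankrd37, so these were not tested under it. Leaving out 1 array moved the medians more. They ran from -0.64 to -0.38 for the PD-0325901 main effect, -0.45 to -0.12 for the rapamycin main effect, -0.55 to -0.12 for PD-0325901 against vehicle, -0.32 to 0.078 for rapamycin against vehicle, -1.07 to -0.29 for the combination against vehicle, -0.78 to -0.58 for the combination against rapamycin, -0.55 to -0.23 for the combination against PD-0325901 and -0.48 to 0.015 for the interaction. With the array number as a replicate block the PD-0325901 median was again -0.58 and the adjusted p of Car9 0.3120. Deviations of same-numbered arrays correlated between groups at -0.28 to 0.18. With 1 such deviation per group, these values cannot settle whether the numbers pair the arrays. Over all genes, the PD-0325901 main effect had 0 calls, 22 in a fit of 4 arrays against 4 (adjusted p of Car9 0.1080) and 8 without vehicle array 2.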
